A study of Rattus norvegicus with 132 samples.

Results

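The Reg lectins and the antimicrobial genes of Paneth cells were followed through the colon and jejunum epithelium of irradiated rats. The 8 genes were taken by symbol from the deposited count tables: Reg3g, Reg3b, Reg3a, Reg1a, Reg4, Pla2g2a, Lyz2 and Mmp7, out of 21837 rows. All 8 were found. RNA was sequenced from 132 libraries of Sprague Dawley rats, 6 in each of 22 groups. One group per tissue was neither irradiated nor treated. All other groups had 5 abdominal fractions of 4 Gy from day 0 and were sampled at day 4 or day 7. These rats were left untreated, given water by mouth (oral vehicle), given compound Kushen powder by mouth, injected intraperitoneally with 0.25% Tween-80 in 25 mM HEPES (injected vehicle), or injected with compound Kushen injection. Both preparations carry the name of Kushen, the root of Sophora flavescens. Each vehicle group was irradiated too, so a preparation is compared with its vehicle in irradiated rats only.

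Paneth cells sit at the base of the small intestinal crypts and fill their granules with lysozyme, defensins, secretory phospholipase A2 and lectins. Reg proteins are small secreted C-type lectins. Reg3g binds the peptidoglycan of Gram-positive bacteria, Reg3b acts mainly on Gram-negative ones, and enterocytes make both when interleukin 22 or Toll-like receptor signals reach the epithelium. The healthy colon has few Paneth cells, but Paneth-type products can appear there in inflammation, which pathologists call Paneth cell metaplasia. Epithelial tissue also holds immune cells, and lysozyme is made by macrophages and neutrophils as well.

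Reg3b, Reg3a, Reg1a and Reg3g follow each other as neighbouring protein-coding genes in RefSeq, with the pseudogene Reg3b-ps1 between Reg3b and Reg3a. The 250 bases before their annotated starts are shown because in colon Reg3g and Reg3b were high after irradiation while Reg3a and Reg1a, which lie between them, stayed near 0 counts. Sequences are from RefSeq on build GRCr8, which is not the build of the counts. Positions are chr4:112484739-112484988 for Reg3g, on the minus strand, and chr4:112419526-112419775 for Reg3b, chr4:112430147-112430396 for Reg3a and chr4:112450216-112450465 for Reg1a, on the plus strand. Reg3a has a second annotated start further on, with chr4:112430174-112430423 before it, and that stretch is neither printed nor aligned here. Capitals mark matches to TATAAA or to TTCNNNGAA, the palindrome that STAT factors bind.
Reg3g: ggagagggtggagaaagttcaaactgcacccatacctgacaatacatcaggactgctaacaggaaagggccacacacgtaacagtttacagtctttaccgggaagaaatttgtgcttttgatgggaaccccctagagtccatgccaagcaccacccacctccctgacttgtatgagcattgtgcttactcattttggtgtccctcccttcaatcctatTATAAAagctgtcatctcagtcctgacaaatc
Reg3b: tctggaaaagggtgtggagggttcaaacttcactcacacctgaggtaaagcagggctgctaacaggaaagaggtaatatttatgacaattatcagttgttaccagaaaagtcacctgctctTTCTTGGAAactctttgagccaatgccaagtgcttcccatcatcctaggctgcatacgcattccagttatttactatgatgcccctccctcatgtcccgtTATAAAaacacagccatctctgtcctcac
Reg3a: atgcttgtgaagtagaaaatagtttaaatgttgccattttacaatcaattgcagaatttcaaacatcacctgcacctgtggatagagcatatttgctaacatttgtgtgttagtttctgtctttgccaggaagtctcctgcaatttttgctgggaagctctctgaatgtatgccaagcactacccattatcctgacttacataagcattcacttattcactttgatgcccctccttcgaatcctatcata
Reg1a: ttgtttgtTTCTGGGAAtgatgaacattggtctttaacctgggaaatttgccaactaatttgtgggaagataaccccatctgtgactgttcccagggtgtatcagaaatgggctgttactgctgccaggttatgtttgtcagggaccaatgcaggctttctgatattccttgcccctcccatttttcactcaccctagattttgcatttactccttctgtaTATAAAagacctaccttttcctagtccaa

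TATAAA began 32 bases before the start in Reg3g and 29 bases before it in Reg3b and in Reg1a, and 43 and 140 bases before it in Mmp7, and 12.9% of 33469 rat promoters of this length hold it on either strand. TTCNNNGAA was found in Reg3b, 129 bases before the start, and in Reg1a, 242 bases before it, against 7.67% of promoters. CTTTGNT, a core of the TCF motif, was found in Reg3a and, 13 bases before the start on the minus strand, in Mmp7, against 16.4%. For NF-kappa-B only a single string with most letters fixed was searched, and it was found in none of the 8 genes and in 1.08% of promoters. Looser forms of the NF-kappa-B motif were not searched, so their absence from these stretches is not shown. In a global alignment the Reg3g and Reg3b stretches had 65.4% identical columns (172 of 263), and every other pair among the 8 genes had 46.6% to 56.4%. For Reg3a this holds for the printed stretch only, since the one before its second start was not aligned. A match is a string of letters and not a measured binding site.

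Levels are CPM, the count of a gene scaled to the library total with TMM factors over all 132 libraries. Levels of different genes are not set against each other, since transcript lengths were not used. Library totals lay between 17.2 and 19.8 M counts, and mitochondrial counts made up 2.97% to 38.0%. The labelled tissues carried their markers: the summed level of the 5 jejunum markers found was 51986 to 60986 CPM in non-irradiated jejunum and 40.1 to 584 CPM in non-irradiated colon. Prss1, a trypsinogen that marks pancreatic acinar cells, had at most 1 count in any group. Other exocrine pancreas markers were detected, with up to 132 counts of a gene in a group. The 8 markers found summed to 0.345 to 3.08 CPM in a library. The non-irradiated jejunum was not uniform. Its goblet markers summed to 5776 to 6624 CPM in the 3 libraries of library series 1 and to 698 to 1383 CPM in the 3 of series 2, and its macrophage markers to 57.3 to 113 CPM and 6.93 to 10.9 CPM. Library series is the number that opens each library name in the labels, whose meaning they do not give. It was a term in the fits, replicates 1 to 3 are of series 1 and 4 to 6 of series 2, and all injected groups are of series 3. Where a replicate is left out below, that number is left out of every group.

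Normal jejunum and normal colon differed in the Reg lectins. Of the 7 members tested, 4 were higher in jejunum and 0 lower, where 70.5% of all genes tested were called in either direction. A gene is called where the adjusted p of edgeR's quasi-likelihood test, Benjamini-Hochberg over all genes tested, is under 0.05. Reg3g lay at 138, 330.2 and 3218 CPM in jejunum and at 0.865, 6.08 and 13.2 CPM in colon, as the lowest, median and highest of 6 libraries. The difference on the log2 scale was 6.35 ± 1.32 (SE, adjusted p = 1.92e-05). Reg3b lay at 197, 740 and 6896 CPM against 0.319, 1.17 and 8.49 CPM. No jejunum library overlapped a colon library for either gene, and in both genes 1 jejunum library, replicate 5, stood far above the rest of its group.

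Reg1a, a lectin first known as a pancreatic stone protein, lay at 50.1, 83 and 304 CPM in jejunum and at no more than 0.307 CPM in any non-irradiated colon library. Reg4, a lectin of secretory epithelial cells, lay at 42.5, 248 and 468 CPM in jejunum and at 28.1, 32.7 and 41.0 CPM in colon. Both genes were higher in jejunum with no overlap, by 9.45 ± 1.04 and 2.41 ± 0.54 on the log2 scale (adjusted p = 1.59e-12 and 6.60e-05). For Reg4 the jejunum range was that of the library series: series 1 lay at 420 to 468 CPM and series 2 at 42.5 to 75.1 CPM, and within series 2 alone the tissue difference was 0.95 with an adjusted p of 0.177. Pla2g2a, Lyz2 and Mmp7 did not pass the test (adjusted p = 0.305, 0.184 and 0.113). The alpha-defensins, the defining Paneth granule peptides, stood apart between tissues: Defa24 was at 43.5 ± 28.6 CPM in jejunum and 0.0721 ± 0.0851 CPM in colon (SD, n = 6). Of the 8 Paneth granule genes tested, 6 were higher in jejunum, where 70.5% of all genes were called in either direction. Defa5 and Np4, also on that list, had 0 counts in every library.

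Irradiation raised 4 of the 6 members tested in colon at day 4: Reg3g, Reg3b, Pla2g2a and Mmp7. None fell, and 46.9% of all genes were called. At day 7 the same 4 genes were higher, Reg4 was lower, and 63.6% of all genes were called. The median log2 fold change of the 6 members tested was 7.07 at day 4 and 5.50 at day 7, and that of all genes was 0.02 on both days. Reg3a and Reg1a, close to 0 counts in colon, did not pass the filter on low counts and are not in the members' median. Mmp7, at most 0.379 CPM in non-irradiated colon, passed it through irradiated groups. The members were also chosen with earlier results of these data known, so these medians are a description and not a test. With so large a background the count of called members says little, and the levels of each gene follow. Both days share the same 6 non-irradiated libraries.

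Pla2g2a, the secretory phospholipase A2 that hydrolyses bacterial membranes, lay at 1.09, 2.28 and 24.7 CPM in non-irradiated colon. It lay at 282, 1941 and 5373 CPM at day 4 and at 982, 5055 and 6223 CPM at day 7. The lowest irradiated library was thus above the highest non-irradiated one, and replicate 3 of the non-irradiated group, at 24.7 CPM, was itself far above the other 5. The log2 fold change was 8.05 ± 0.96 at day 4 (adjusted p = 4.29e-08) and 9.17 ± 0.98 at day 7 (adjusted p = 1.22e-09). Without replicate 3 the day 4 value was 10.09. Over all 10 irradiated colon groups, treated or not, 60 of 60 libraries lay above every non-irradiated library. Within the library series the day 4 values were 5.84 and 11.26, both called, so the size differed between series.

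Mmp7, matrilysin, is the metalloprotease that cuts pro-defensins in mouse Paneth cells. It was close to absent from non-irradiated colon, at 0.0455, 0.175 and 0.379 CPM. At day 4 it lay at 17.6, 66.1 and 125 CPM, and at day 7 at 5.29, 8.50 and 64.0 CPM. Irradiated and non-irradiated libraries did not overlap on either day, and again 60 of 60 irradiated colon libraries were above all non-irradiated ones. The log2 fold change was 8.47 ± 1.17 at day 4 (adjusted p = 7.74e-07) and 6.64 ± 1.15 at day 7 (adjusted p = 6.28e-06). Both series gave it alone, at 7.61 and 9.28 for day 4.

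Reg3g went from 0.865, 6.08 and 13.2 CPM in non-irradiated colon to 6.30, 282 and 1463 CPM at day 4 and 38.6, 87.6 and 288 CPM at day 7. At day 4 one irradiated library, replicate 4, lay within the non-irradiated range, and at day 7 none did. The log2 fold change was 6.39 ± 1.40 (adjusted p = 3.96e-04) and 4.42 ± 1.27 (adjusted p = 0.00297). Reg3b went from 0.319, 1.17 and 8.49 CPM to 10.0, 201 and 1675 CPM and to 33.4, 158 and 469 CPM, with no overlap on either day. Its log2 fold change was 7.76 ± 1.64 (adjusted p = 2.63e-04) and 6.59 ± 1.54 (adjusted p = 3.59e-04). Across the irradiated colon groups 52 of 60 libraries for Reg3g and 55 of 60 for Reg3b exceeded every non-irradiated library. The remaining libraries lay within or below the non-irradiated range, down to 0.203 CPM of Reg3g and 0.0490 CPM of Reg3b. When the share of mitochondrial counts entered the fit, the day 7 values were 4.38 and 4.40 and no longer called (adjusted p = 0.512 and 0.553). That share had a median of 12.2% in non-irradiated colon and 3.97% at day 7, so in this comparison group and share can hardly be told apart.

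Reg4 lay at 28.1, 32.7 and 41.0 CPM in non-irradiated colon, at 20.5, 39.8 and 53.2 CPM at day 4 and at 4.36, 7.27 and 44.4 CPM at day 7. The day 7 level fell by 1.36 ± 0.52 on the log2 scale (adjusted p = 0.0223), and the groups overlapped. Leaving out any of replicates 3 to 6 ended the call, with adjusted p from 0.0548 to 0.0758, as did mitochondrial share in the fit (-1.29, adjusted p = 0.617). Lyz2 lay at 4.68, 30.6 and 67.9 CPM, at 10.4, 45.2 and 64.7 CPM and at 6.46, 11.2 and 44.9 CPM in the same order. The 3 groups overlapped widely and neither day was called (adjusted p = 0.631 and 0.142). Lyz2 has a near copy, Lyc2, whose reads could not be told apart by the counts alone.

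Reg3a and Reg1a were too scarce in colon for the filter. Reg3a had 0 counts in non-irradiated colon and 7 and 11 counts over the 6 untreated irradiated libraries at day 4 and day 7. Reg1a had 17 counts in non-irradiated colon and 7 and 19 after irradiation. The neighbours of Reg3g and Reg3b on the chromosome were thus close to 0 in the same libraries.

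**Figure D1:**
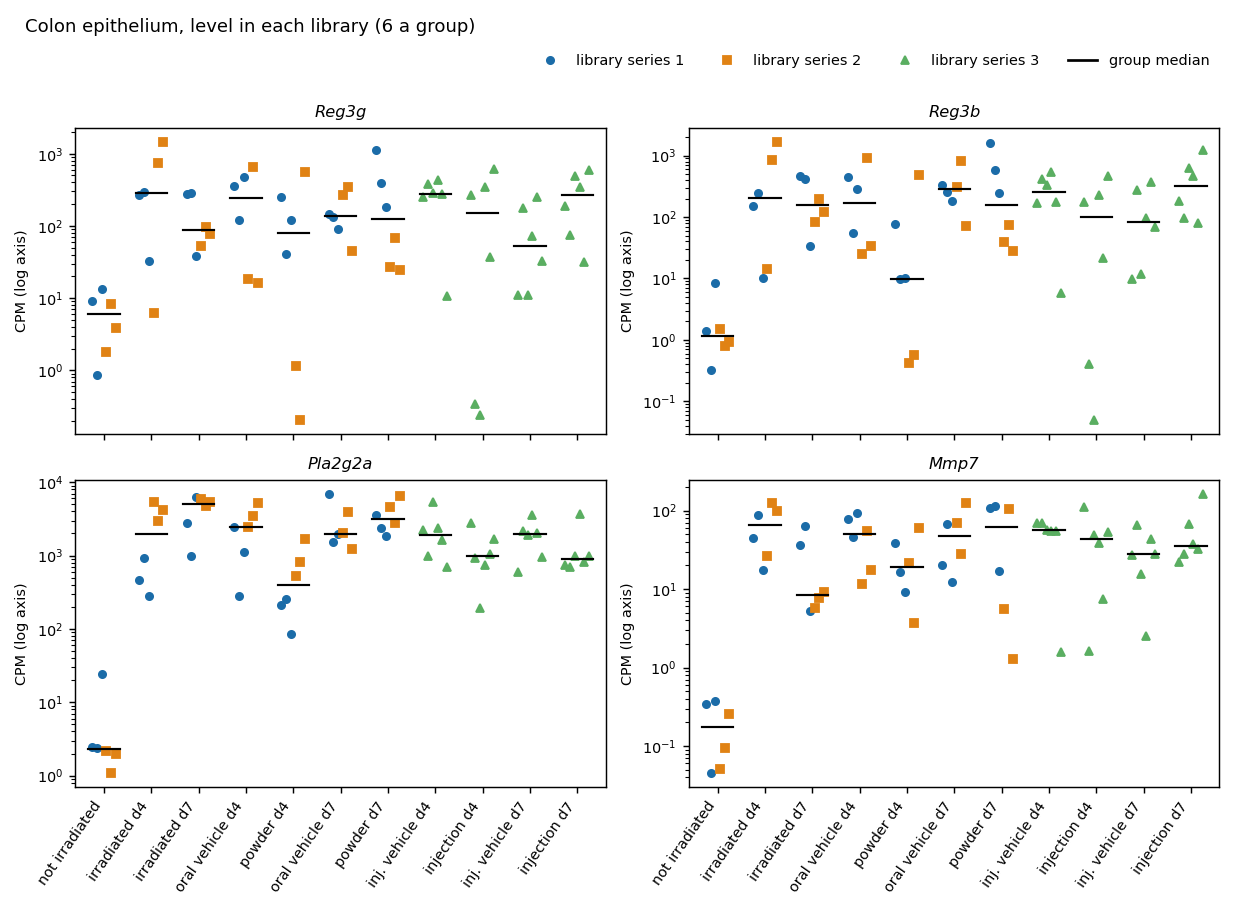
Level of 4 members in each colon library, in CPM on a log axis, for the 11 colon groups. Each point is a library, shaped by library series, and the bar is the group median. Pla2g2a and Mmp7 of every irradiated group lie above the non-irradiated group, while Reg3g and Reg3b also have irradiated libraries near the non-irradiated level.

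The list of cytokine and pattern receptor signalling genes had 22 of 27 members tested, 13 higher and 3 lower at day 4 and 10 higher and 4 lower at day 7. Tlr2, a receptor for bacterial lipoproteins, rose from 0.923 ± 0.552 to 17.7 ± 8.91 CPM at day 4 (log2 4.27 ± 0.44, adjusted p = 2.60e-09). Osmr, the oncostatin M receptor, rose from 2.19 ± 1.09 to 39.0 ± 20.7 CPM. Tlr5, the flagellin receptor, fell by 5.25 ± 0.69 at day 7 (adjusted p = 6.12e-08). The list held genes called in both directions, and against 46.9% and 63.6% of all genes called, its share at day 7 was that of the background.

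Of 15 other mucosal defence genes tested, 7 were higher and 0 lower at day 4, and 6 were higher and 1 lower at day 7, where 46.9% and 63.6% of all genes were called. The share called was thus near that of all genes at day 4 and below it at day 7. Duox2, the epithelial NADPH oxidase, rose from 5.64 ± 3.15 to 935 ± 632 CPM at day 4 (log2 7.12 ± 0.66, adjusted p = 4.15e-10). Its maturation factor Duoxa2 rose by 7.67 ± 0.78 (adjusted p = 2.47e-09), and Lcn2, lipocalin 2, by 3.85 ± 0.54 (adjusted p = 1.01e-06). The lectin Itln1, the 1 Paneth granule gene that could be tested in colon, went the other way: it fell by 3.81 ± 0.66 at day 4 and by 4.42 ± 0.68 at day 7 (adjusted p = 2.13e-05 and 9.83e-07). The defensin Defa24 had 9 counts in non-irradiated colon, 4 at day 4 and 0 at day 7. Of the 11 Paneth fate genes tested, Sox9, a factor Paneth cells need, was among 3 higher at day 4 (log2 1.79 ± 0.36), and Gfi1 was among the 2 lower (log2 -1.23 ± 0.37).

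Markers of other cells were counted in the same comparisons, where 46.9% and 63.6% of all genes were called at day 4 and day 7. Neutrophil markers were higher for 5 of 6 tested on both days. Their summed level was 3.51 to 20.1 CPM in non-irradiated colon, 14.7 to 104 CPM at day 4 and 22.5 to 48.3 CPM at day 7. Macrophage markers were higher for 7 of 9 tested at day 4, with sums of 109 to 190 CPM and then 181 to 347 CPM. At day 7 they were higher for 4 of 9, with sums of 116 to 177 CPM, within the non-irradiated range. S100a9 was at 38.6 ± 32.4 CPM at day 4, and the granule genes Mpo and Elane, also on the neutrophil list, had 17 and 2 counts over the group. Stroma and muscle markers were higher for 5 of 8 on both days. The part of these cells in the member results was not tested. In bulk tissue, a change in the number of cells of a type and a change in RNA per cell cannot be told apart.

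In jejunum fewer members passed. At day 4, 2 of 7 tested were higher, Reg3g and Pla2g2a, where 44% of all genes were called. At day 7, 2 of 7 were higher, Pla2g2a and Reg1a, where 58.8% of all genes were called. None was lower on either day. The median log2 fold change of the 7 members tested was 1.21 and 0.67, and that of all genes was 0.05 and 0.02. Reg3a did not pass the filter on low counts and is not in the members' median, and these medians too are a description and not a test.

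Reg3g lay at 138, 330.2 and 3218 CPM in non-irradiated jejunum, at 435, 4925 and 8992 CPM at day 4 and at 654, 1893 and 7546 CPM at day 7. The ranges overlapped on both days. The log2 fold change was 2.47 ± 0.92 at day 4 (adjusted p = 0.0278), and 1.88 ± 0.91 at day 7 did not pass (adjusted p = 0.0718). Leaving out replicate 1, 4 or 6 ended the day 4 call, with adjusted p of 0.124, 0.124 and 0.0732. Within the library series the day 4 values were 2.48 and 2.46, neither called alone (adjusted p = 0.250 and 0.0566). Reg3b lay at 197, 740 and 6896 CPM, at 1177, 6176 and 11748 CPM and at 916, 1763 and 5826 CPM, and neither day was called (log2 1.77 ± 0.90 and 0.67 ± 0.89, adjusted p = 0.106 and 0.529). Without replicate 5, the high library of the non-irradiated group, Reg3b at day 4 was called at 2.92 (adjusted p = 0.0343).

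Pla2g2a lay at 5.40, 8.26 and 30.5 CPM in non-irradiated jejunum, at 5.91, 47.0 and 351 CPM at day 4 and at 34.2, 313 and 581 CPM at day 7. The day 4 libraries overlapped the non-irradiated ones and the day 7 libraries did not. The log2 fold change was 3.22 ± 0.92 (adjusted p = 0.00520) and 4.55 ± 0.98 (adjusted p = 1.97e-04). Without replicate 1 the day 4 value was 2.35 and not called (adjusted p = 0.0714). Series 1 alone gave 2.52 and series 2 alone 4.23 at day 4, and series 1 alone did not call it (adjusted p = 0.259). Over all 10 irradiated jejunum groups, 53 of 60 libraries exceeded every non-irradiated one.

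Reg1a was called at day 7 and not at day 4. It lay at 50.1, 83 and 304 CPM in non-irradiated jejunum, at 23.1, 82.5 and 262 CPM at day 4 and at 196, 328 and 1832 CPM at day 7. Day 7 was 2.37 ± 0.79 higher than non-irradiated on the log2 scale (adjusted p = 0.0111) and overlapped it. Day 4 was not called (log2 -0.18 ± 0.75, adjusted p = 0.859). Series 1 alone gave 3.80 and series 2 alone 0.84 at day 7, the latter not called (adjusted p = 0.209), so the size differed between series. Without replicate 3, the library at 1832 CPM, the value was 1.53 and still called (adjusted p = 0.0477).

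Reg3a had 0 counts in non-irradiated jejunum, 40 at day 4 and 5 at day 7. At day 4, 2 of the 6 libraries had no count and the highest held 1.02 CPM. Mmp7 lay at 0.225, 0.766 and 2.98 CPM, at 0.537, 1.18 and 9.01 CPM and at 0.2, 1.01 and 1.66 CPM. The ranges overlapped and neither day was called (adjusted p = 0.190 and 0.909). Lyz2 lay at 29.9, 57.3 and 162 CPM, at 30.2, 60.9 and 118 CPM and at 25.9, 44.7 and 146 CPM, and was not called either (adjusted p = 0.920 and 0.727).

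Reg4 gave opposite answers in the library series. In all jejunum libraries it was not called on either day (log2 -0.87 ± 0.47 and -0.46 ± 0.48, adjusted p = 0.134 and 0.411). In series 1 alone, where non-irradiated libraries held 420 to 468 CPM, it fell by 1.76 at day 4 and by 1.73 at day 7 (adjusted p = 0.0497 and 0.0371). In series 2 alone, where they held 42.5 to 75.1 CPM, it was 1.25 and 1.93 higher (adjusted p = 0.00982 and 3.26e-04). Irradiated untreated libraries of series 1 held 79.8 to 180.4 CPM and those of series 2 held 124 to 165 CPM at day 4. Goblet and macrophage markers of the non-irradiated libraries differed between the series as well, and their part in this result was not tested.

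**Figure D2:**
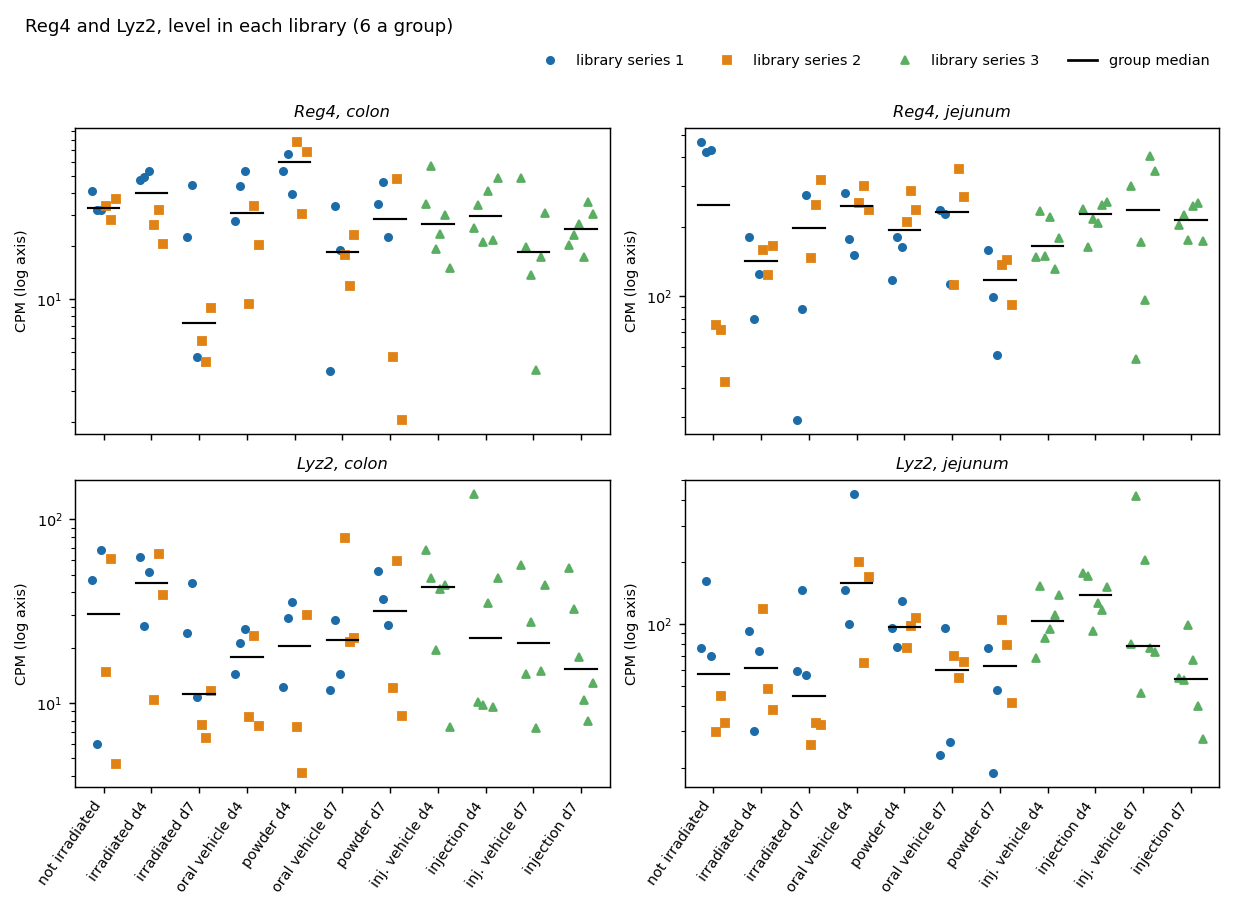
Level of Reg4 and Lyz2 in each library of both tissues, in CPM on a log axis, with points shaped by library series and bars at the group medians. The non-irradiated jejunum libraries fall into 2 sets for Reg4, 420 to 468 CPM in series 1 and 42.5 to 75.1 CPM in series 2.

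The wider lists in jejunum were counted in the same fits. Of 7 Paneth granule genes tested, 0 were called by edgeR on either day of irradiation. Their summed level was 91.1 to 442 CPM in non-irradiated jejunum, 23.1 to 184 CPM at day 4 and 44.6 to 440.1 CPM at day 7. Of all genes, 44% and 58.8% were called at day 4 and day 7, against which the following counts are read. Paneth fate genes were called for 6 of 10 on both days, 3 higher and 3 lower at day 4, which at day 7 is near the background. Sox9 rose by 3.23 ± 0.51, while Atoh1, the factor for the secretory lineage, fell by 2.80 ± 0.46 (adjusted p = 7.28e-06 and 1.45e-05). Signalling genes were higher for 10 and lower for 2 of 20 at day 4, and 4 and 5 at day 7. Tlr2 rose by 5.50 ± 0.66 (adjusted p = 9.10e-08) and Il17c, an epithelial cytokine, by 5.47 ± 1.14 (adjusted p = 2.82e-04) at day 4. Other mucosal defence genes were higher for 9 of 13 on both days, with Lcn2 up by 5.33 ± 0.69 and 5.90 ± 0.69 (adjusted p = 3.95e-07 and 3.13e-08). Neutrophil marker sums were 2.53 to 16.9 CPM in non-irradiated jejunum, 3.11 to 19.2 CPM at day 4 and 1.57 to 11.5 CPM at day 7. Of the 3 neutrophil markers tested, S100a9 was higher on both days (0, 446 and 420 counts over the groups) and Ncf1 was lower. Macrophage marker sums were 6.93 to 113, 18.5 to 37.7 and 13.1 to 39.4 CPM in the same order. Their part in the member results was not tested.

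**Figure D3:**
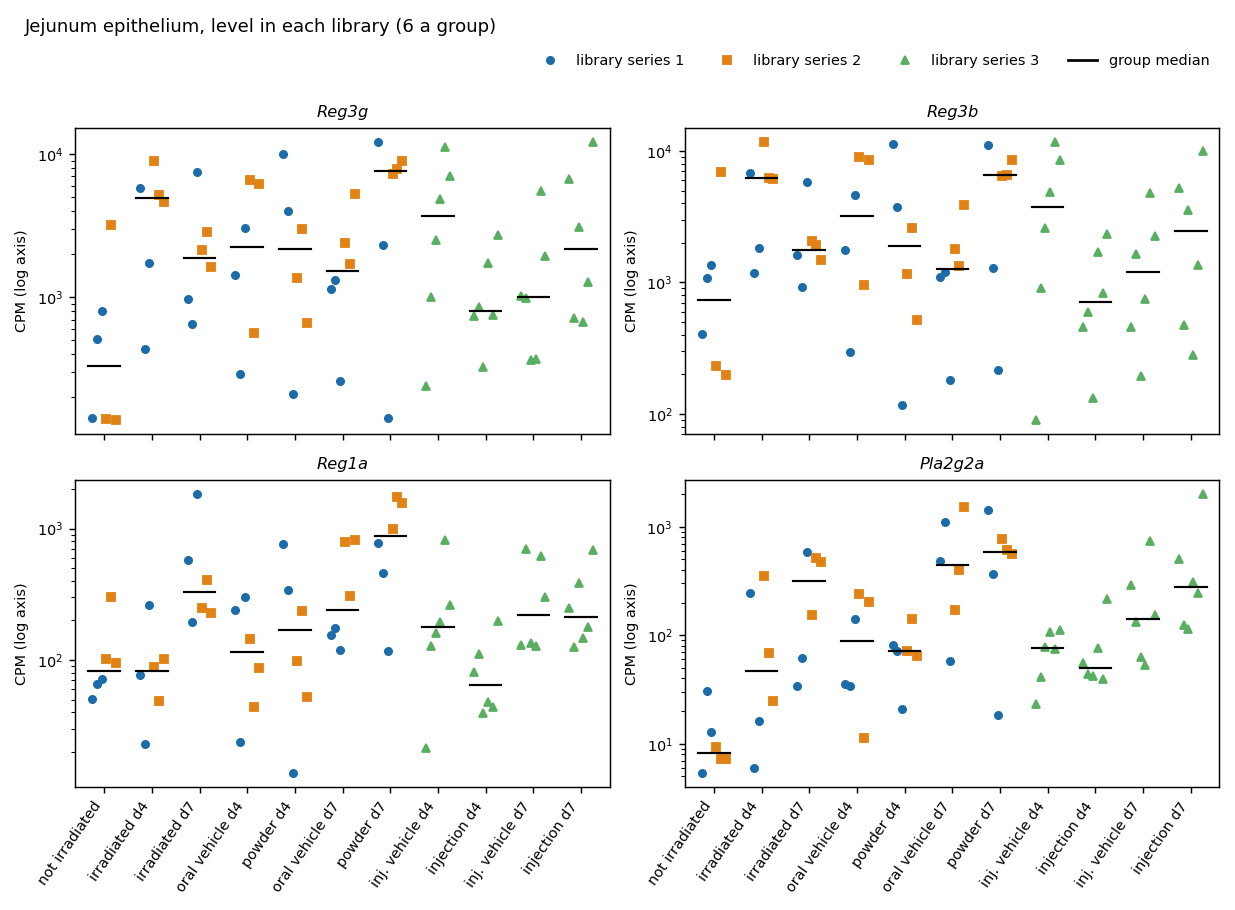
Level of 4 members in each jejunum library, in CPM on a log axis, for the 11 jejunum groups. Points are libraries shaped by library series and bars are group medians. Pla2g2a at day 7 of the untreated rats lies above the non-irradiated group, while Reg3g and Reg3b overlap it in every group.

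The difference between the tissues was tested directly. Of 7 members, 3 had a smaller irradiation effect in jejunum than in colon at day 4, where 21.8% of all genes were called, and the same 3 at day 7, where 39.6% were called. They were Reg3b (log2 difference of the effects -5.94 ± 1.68 and -5.85 ± 1.65, adjusted p = 0.00723 and 0.00355), Pla2g2a (-4.76 ± 1.22 and -4.54 ± 1.19, adjusted p = 0.00309 and 0.00177) and Mmp7 (-7.17 ± 1.37 and -6.64 ± 1.39, adjusted p = 7.42e-05 and 1.12e-04). The difference for Reg3g was -3.86 ± 1.5 and -2.46 ± 1.47 and was not called (adjusted p = 0.0541 and 0.176). For Reg3b and Reg3g the non-irradiated level was already far higher in jejunum, and for Pla2g2a and Mmp7 the non-irradiated levels were not distinguished. The medians of all genes in these contrasts were 0.11 and 0.18. Colon and jejunum libraries may come from the same rats, which the labels do not say. With a replicate block in the fit, the difference for Reg3b at day 4 was no longer called.

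**Figure D4:**
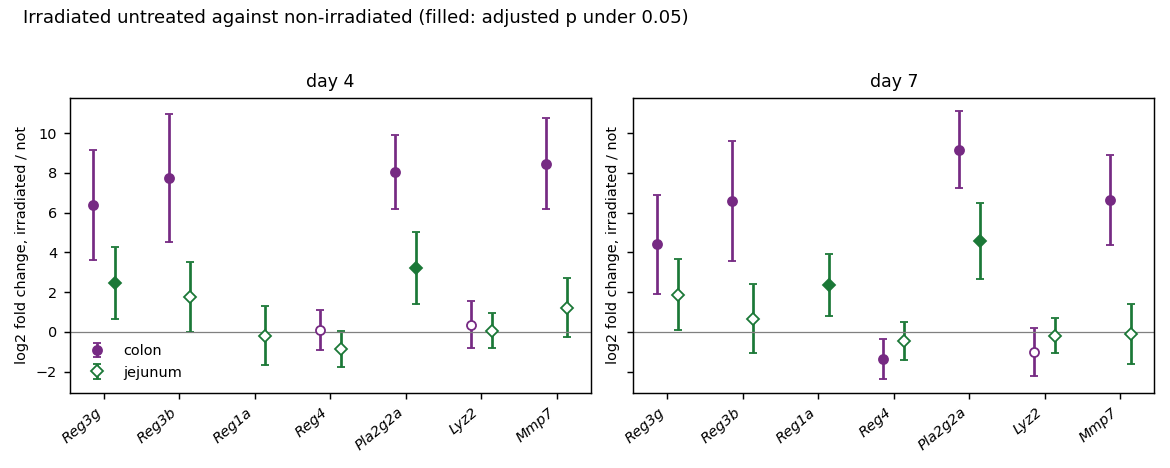
Log2 fold change of irradiated untreated against non-irradiated libraries for the 7 members tested in at least 1 tissue, at day 4 and day 7, with 95% intervals. Filled symbols are called. The colon values of Reg3g, Reg3b, Pla2g2a and Mmp7 lie between 4.42 and 9.17, and the called jejunum values between 2.37 and 4.55.

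Between day 4 and day 7 few members changed. In untreated colon, Reg4 was lower at day 7 by 1.45 ± 0.52 (adjusted p = 0.0259), the 1 member of 6 called where 36.5% of all genes were called. The call ended without replicate 3, 4 or 5 (adjusted p = 0.0976, 0.0658 and 0.0822), in either library series alone, and when mitochondrial share entered the fit (-1.41, adjusted p = 0.310). Mmp7 and Lyz2 missed the threshold (log2 -1.83 ± 0.79 and -1.38 ± 0.61, adjusted p = 0.0682 and 0.0736). In oral vehicle and in injected vehicle colon edgeR called 0 of 6 members, where 27.4% of all genes were called in each. No member there had an unadjusted p under 0.05, and DESeq2 called 0 as well. In untreated jejunum, Reg1a was 2.55 ± 0.78 higher at day 7 (adjusted p = 0.00930), 1 of 7 members against 41% of all genes.

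In oral vehicle jejunum 2 of 7 members were called, against 25.7% of all genes. Pla2g2a went from 11.3, 89.0 and 239 CPM at day 4 to 57.6, 442 and 1535 CPM at day 7 (log2 2.58 ± 0.88, adjusted p = 0.0305). Lyz2 went from 64.7, 158 and 429 CPM to 23.1, 60 and 96 CPM (log2 -1.66 ± 0.46, adjusted p = 0.00882). Both pairs of groups overlapped. The defensins moved with Lyz2 there: 3 of 7 Paneth granule genes were lower, Defa24 by 2.36 ± 0.61 and Defal1 by 2.51 ± 0.66 (adjusted p = 0.00557 and 0.00632). Without replicate 3 the Lyz2 value was -1.12 and not called (adjusted p = 0.0668). In injected vehicle jejunum Pla2g2a was 1.74 ± 0.71 higher at day 7 (adjusted p = 0.0452), 1 of 7 members against 50.6% of all genes, and without replicate 5 it was 0.96 (adjusted p = 0.292).

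No member passed the test between oral vehicle and untreated irradiated rats. In colon edgeR called 0 of 6 at day 4 and 0 of 6 at day 7, where 0% and 0.00752% of all genes were called. The members with an unadjusted p under 0.05 numbered 1 and 0, and DESeq2 called 0 on both days. In jejunum edgeR called 0 of 7 on both days, where 0% and 0.008% of all genes were called, with 1 and 0 members at an unadjusted p under 0.05 and 0 by DESeq2. Both of those members were Lyz2 at day 4. It lay at 7.46, 17.8 and 25.4 CPM with vehicle against 10.4, 45.2 and 64.7 CPM without in colon, and at 64.7, 158 and 429 CPM against 30.2, 60.9 and 118 CPM in jejunum (unadjusted p = 0.0316 and 0.00315, adjusted p = 1 and 0.421). The direction was opposite in the tissues, lower in colon and higher in jejunum.

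Compound Kushen powder was compared with oral vehicle to ask whether it altered these genes in irradiated rats. In colon at day 4, 1 of 6 members was called, lower, where 11.8% of all genes were called. That member was Pla2g2a, at 86.6, 394 and 1697 CPM with powder and 277, 2451 and 5147 CPM with vehicle. The groups overlapped, and all 6 powder libraries were still above every non-irradiated library. The log2 fold change was -2.16 ± 0.72 (adjusted p = 0.0431). It was -2.83 in series 1 and -1.86 in series 2, and neither series called it alone (adjusted p = 0.140 and 0.0773). The call also ended without replicate 1, 2, 4 or 5 (adjusted p = 0.0586 to 0.147) and when mitochondrial share entered the fit (-1.51, adjusted p = 0.234). The value stayed below 0 in each of these fits.

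The Reg3 lectins were not called in the same comparison and spread widely. Reg3b lay at 0.421, 9.99 and 482 CPM with powder and at 24.7, 169 and 928 CPM with vehicle (log2 -1.62 ± 1.22, adjusted p = 0.396). Without replicate 6, the powder library at 482 CPM, the value was -4.51 (adjusted p = 0.0350), and without replicate 5 it was -0.16. Reg3g lay at 0.203, 80.7 and 564 CPM against 16.1, 242 and 665 CPM (log2 -0.70 ± 1.10, adjusted p = 0.71). In both genes the 2 lowest powder libraries, replicates 4 and 5, were within or below the range of non-irradiated colon. Reg4 lay at 30.5, 59.8 and 77.9 CPM against 9.32, 30.5 and 53.5 CPM and was not called (log2 0.97 ± 0.51, adjusted p = 0.204). Mmp7 and Lyz2 were not called either (log2 -0.90 ± 0.76 and 0.23 ± 0.60, adjusted p = 0.459 and 0.842).

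Context genes were called beside Pla2g2a in that comparison, where 11.8% of all genes were called. Signalling genes were lower for 8 of 22 and higher for 0, among them Tlr2 and Tlr4 (log2 -1.80 ± 0.37 and -1.51 ± 0.34, adjusted p = 0.00282 and 0.00470). Other mucosal defence genes were lower for 4 of 15, led by Duoxa2 and Duox2 (log2 -3.89 ± 0.62 and -3.26 ± 0.55, adjusted p = 5.25e-04 and 8.55e-04). Paneth fate genes were higher for 3 of 11, among them Xbp1 and Gfi1 (log2 0.45 ± 0.11 and 1.40 ± 0.38). Neutrophil markers were lower for 4 of 6, with sums of 5.75 to 25.7 CPM with powder and 9.67 to 108 CPM with vehicle, and S100a9 fell by 2.52 ± 0.57 (adjusted p = 0.00498). Macrophage markers were called for 0 of 9 by edgeR. The part of neutrophils in the Pla2g2a result was not tested.

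At day 7 powder called 0 of 6 members in colon by edgeR, where 0% of all genes were called, with 0 at an unadjusted p under 0.05 and 0 by DESeq2. Pla2g2a then lay at 1847, 3180 and 6469 CPM with powder and 1220 to 6885 CPM with vehicle (log2 0.10 ± 0.69, 95% interval -1.25 to 1.46). The change of the powder effect from day 4 to day 7 was 2.26 ± 0.98 for Pla2g2a and was not called (adjusted p = 0.261). In that contrast edgeR called 0 of 6 members and 0% of all genes, with 1 member at an unadjusted p under 0.05 and 0 by DESeq2. A difference of the powder effect between the days was therefore not shown.

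In jejunum powder called 0 of 7 members at day 4 and 0 of 7 at day 7 by edgeR, where 0.008% of all genes were called on each day. The members with an unadjusted p under 0.05 numbered 0 and 2, and DESeq2 called 0. At day 7 the powder group had the highest median of all 22 groups for Reg3g, Reg3b and Reg1a. Reg3g lay at 144, 7630 and 12241 CPM with powder and 261, 1519 and 5246 CPM with vehicle (log2 1.80 ± 0.90, unadjusted p = 0.0524, adjusted p = 1). Reg3b lay at 215, 6516 and 11029 CPM against 179.7, 1268 and 3872 CPM (log2 1.92 ± 0.91, unadjusted p = 0.0410, adjusted p = 1). The powder libraries other than replicate 3 held at least 2321 CPM of Reg3g, so that the group was split rather than even. Reg1a lay at 118, 884 and 1748 CPM against 119, 240 and 817 CPM and Reg4 at 55.4, 118 and 159 CPM against 112, 232 and 358 CPM, neither called.

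Compound Kushen injection was compared with injected vehicle in library series 3 alone. In colon edgeR called 0 of 6 members at day 4 and 0 of 6 at day 7, and in jejunum 0 of 7 and 0 of 7, where 0% of all genes were called each time. Members with an unadjusted p under 0.05 numbered 0 and 0 in colon and 3 and 1 in jejunum, and DESeq2 called 0 in all 4 comparisons. At day 4 in jejunum the 3 were Reg3g, Reg3b and Reg1a. Reg3g lay at 325, 804 and 2732 CPM with injection and 242, 3712 and 11278 CPM with vehicle (log2 -1.89 ± 0.85, adjusted p = 0.581). Reg3b lay at 131, 713 and 2324 CPM against 89.0, 3725 and 11729 CPM (log2 -2.21 ± 0.96, adjusted p = 0.580). Reg1a lay at 39.2, 64.5 and 197 CPM against 21.4, 177 and 823 CPM (log2 -1.60 ± 0.65, adjusted p = 0.580). The vehicle ranges enclosed the injection ranges in all 3 genes.

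At day 7 in jejunum the member was Lyz2, at 27.6, 54 and 99 CPM with injection and 46.4, 78.6 and 418 CPM with vehicle (log2 -1.38 ± 0.41, unadjusted p = 0.00278, adjusted p = 0.998). In colon, Pla2g2a lay at 195, 985 and 2771 CPM against 693, 1924 and 5298 CPM at day 4 (log2 -0.82 ± 0.57, 95% interval -1.93 to 0.29). At day 7 it lay at 700.0, 901 and 3662 CPM against 589, 1972 and 3554 CPM (log2 -0.52 ± 0.56, interval -1.62 to 0.58). Reg3b lay at 80.6, 319 and 1231 CPM against 9.63, 83.4 and 372 CPM at day 7 (log2 1.68 ± 1.2, adjusted p = 1). The intervals of the Reg3 lectins were several log2 units wide, and a p above the threshold does not show that injection and vehicle act alike.

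Ordered by median over the 22 groups, all neighbours overlapped in their ranges for Reg3g, Reg3b, Reg3a, Reg4, Pla2g2a, Lyz2 and Mmp7, 21 of 21 neighbour pairs each. For Reg1a 20 of 21 overlapped, and the gap lay between the lowest jejunum group, injection at day 4, and the highest colon group, oral vehicle at day 7. For Reg3g the 11 jejunum groups held ranks 1 to 11 and non-irradiated colon the last, and for Pla2g2a 9 irradiated colon groups held ranks 1 to 9 and both non-irradiated groups the last ranks. For Mmp7 the 10 irradiated colon groups held ranks 1 to 10. Levels of injected groups stand beside the others in these orders, although they are of another library series.

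Libraries of a single group differed more in these genes than in most. The pooled within-group SD of log2 CPM was 2.71 for both Reg3g and Reg3b in colon, ranks 16 and 15 from the largest among 13306 genes, whose median was 0.324. In jejunum it was 1.74 and 1.86, ranks 121 and 78 among 12501 genes, with a median of 0.391. In colon Mmp7 followed with 1.67 and Pla2g2a with 1.24, and in jejunum Pla2g2a with 1.57, Reg1a with 1.33 and Mmp7 with 1.29. Reg4 was steadier, at 0.974 in colon and 0.806 in jejunum. Lyz2 was close to Pla2g2a in colon, at 1.19, and steadier in jejunum, at 0.783. All of these were above the median of all genes in their tissue.

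These deviations were shared between some members. Deviations of log2 CPM from the group mean were correlated over the 66 libraries of a tissue. In all there were 196 pairs, of members with each other and with marker genes. The p came from 100000 permutations within groups, adjusted over the pairs. Group means and permutations spanned library series 1 and 2 where a group held both. A shift between these series within a group can thus enter r and p, and also r within series 1 or 2. The groups of series 3 hold no other series. For Reg3g and Reg3b Pearson's r was 0.954 in colon and 0.964 in jejunum, Spearman's rho was 0.939 and 0.972, and without the 2 libraries of the most extreme Reg3g r was 0.955 and 0.962. The permutation p of r was 1e-05, the smallest they can give (adjusted p = 6.12e-05), for each of these. Within library series 1, 2 and 3, r was 0.899, 0.949 and 0.986 in colon. In jejunum Reg1a followed Reg3g too (r = 0.792, rho = 0.762, 0.753 without the 2 libraries, permutation adjusted p = 6.12e-05). Reads of similar paralogs and the pseudogene Reg3b-ps1 can be shared by the counting, which the sources used here do not describe.

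Lyz2 followed different genes in the tissues. In colon its deviations went with those of Csf1r, the macrophage growth factor receptor (r = 0.827, rho = 0.805, 0.799 without the 2 extreme libraries, permutation adjusted p = 6.12e-05). They were 0.841, 0.889 and 0.870 within series 1, 2 and 3. In jejunum the same pair had r = -0.0408 and rho = -0.123 (permutation adjusted p = 0.856). Within series 1, 2 and 3 its r there was 0.0595, 0.293 and -0.522, so the value over all libraries pools different signs. Macrophage markers were also scarcer there, with sums of 18.5 to 37.7 CPM in irradiated untreated jejunum at day 4 against 181 to 347 CPM in colon. In jejunum Lyz2 went with the Paneth defensins, Defa24 (r = 0.866, rho = 0.818, 0.834 without the 2 libraries) and Defa8 (r = 0.876, rho = 0.844, 0.852), both with a permutation adjusted p of 6.12e-05. For Defa24 r was 0.839, 0.819 and 0.936 within the series. In colon Defa24 had at most 9 counts in a group, so its r of 0.343 there rests on single reads. The difference between the tissues was not tested.

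**Figure D5:**
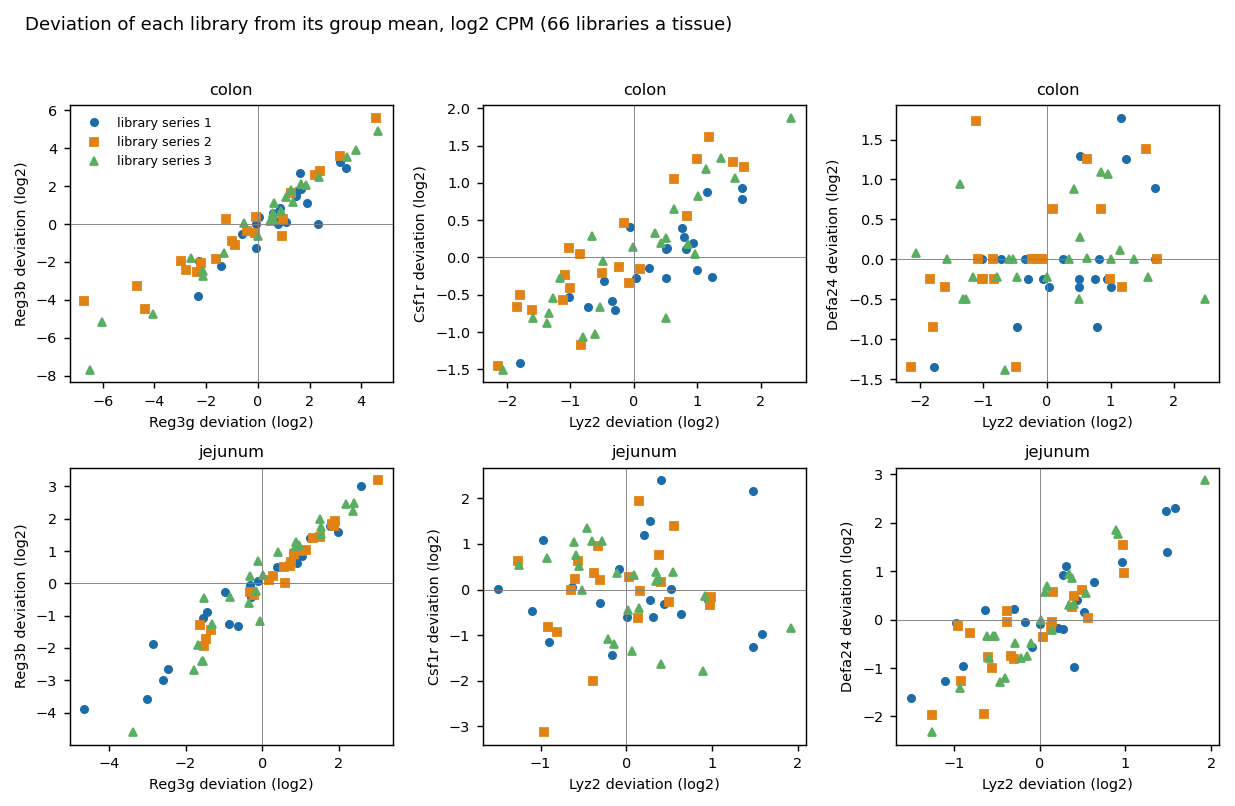
Deviation of each library from the mean of its group on the log2 CPM scale, for 66 libraries of colon (top) and 66 of jejunum (bottom), with points shaped by library series. Reg3b rises with Reg3g in both tissues (r = 0.954 and 0.964). Lyz2 rises with Csf1r in colon (r = 0.827) and not in jejunum (r = -0.0408), and with Defa24 in jejunum (r = 0.866).

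The deviations of Pla2g2a went with those of oxidant defence genes. In colon r was 0.779 with Duox2 (rho = 0.762, 0.758 without the 2 extreme libraries) and 0.795 with Nos2, the inducible nitric oxide synthase (rho = 0.779, 0.786). In jejunum it was 0.800 with Duox2 (rho = 0.797, 0.764) and 0.878 with S100a9 (rho = 0.865, 0.845). All 4 had a permutation adjusted p of 6.12e-05, and r ranged from 0.711 to 0.908 within the library series. In jejunum this was not particular to Pla2g2a. Reg3g there had r of 0.785 with Duox2, 0.778 with S100a9 and 0.766 with Pla2g2a, and in colon 0.312, 0.439 and 0.137. Mmp7 in colon went with Reg4 (r = 0.663, rho = 0.585, 0.574 without the 2 libraries, permutation adjusted p = 6.12e-05) and against Itln1 (r = -0.592, rho = -0.546, -0.493, permutation adjusted p = 1.43e-04). In jejunum, libraries with more Pla2g2a than their group thus also had more S100a9, and in colon r of this pair was 0.584 (permutation adjusted p = 1.43e-04). S100a9 is only 1 gene of the neutrophil list. With S100a8, another of them, r of Pla2g2a was 0.456 in jejunum and 0.358 in colon. The part of neutrophils was not tested. Between the colon and jejunum libraries of the same group and replicate number, the members' deviations had r from -0.0984 to 0.227 over 66 pairs.

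The genes whose group means were most like each member's over the 22 groups were taken by Pearson's r, as a description. The 22 points fall into the 2 tissues, so r within the 11 colon and 11 jejunum groups is given in that order after it. Reg3g and Reg3b were each other's closest (0.979 over all, 0.980 in colon, 0.879 in jejunum), followed by Dnaaf3 (0.953, 0.803 and 0.743) and Pak2 (0.949, 0.807 and 0.655) for Reg3g. For Reg3b, Dnaja1 (0.950, 0.948 and 0.363) and Ppp2r1b (0.949, 0.914 and 0.219) were close in colon and not in jejunum. Pla2g2a was closest to Sfrp1 (0.958, 0.958 and 0.917), Celsr1 (0.956, 0.956 and 0.991) and Duox2 (0.946, 0.968 and 0.866), which stayed high within both tissues. Mmp7 was closest to Trim29 (0.953, 0.923 and 0.898), Evc2 (0.945, 0.888 and 0.742) and Wipi1 (0.944, 0.944 and 0.384). Lyz2 was closest to its near copy Lyc2 (0.955, 0.830 and 0.871), the defensin RatNP-3b (0.944, 0.740 and 0.939) and Adprm (0.929, 0.683 and 0.669). For Reg4 the closest were Defa8 (0.982, 0.912 and 0.558), Acot12 (0.976, 0.932 and -0.110) and Sdsl (0.972, 0.886 and -0.391). For Reg1a they were RGD1561551 (0.993, 0.640 and 0.772), Gsta5 (0.989, 0.437 and 0.585) and Hebp1 (0.989, 0.285 and 0.640).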

How the data were processed

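The authors deposited 2 tables of raw counts, unnormalized, with genes as symbols and 168 library columns. All columns matched a label, and the 36 libraries present in both tables had identical values and were used once. The submitters' processing notes name STAR 2.7.10a and build mRatBN7.2. No counter, annotation or strand setting is named (not given in the sources used here). Totals of 17.2 to 19.8 M counts per library make counting error small except for genes with a few counts. Counts were tested with edgeR 4.0.16 in R 4.3.3 (quasi-likelihood F test, TMM factors, filterByExpr by group), with Benjamini-Hochberg adjustment over all genes tested and a threshold of 0.05, and every adjusted p of a single gene is from it unless a permutation or DESeq2 is named. Each tissue had a fit of 42 libraries with library series as a term and, for the injected groups, a fit of 24 libraries. Tissues were compared in a fit of 84. SE is the fold change divided by the root of F, and intervals are normal ones from the SE at a confidence level of 95%. Log2 CPM for correlations used a prior count of 0.5. The colon fit of the oral groups was tried on simulated counts with the same dispersion for every gene and no library series effect. That does not show how the fits behave for genes that vary as widely as the Reg3 lectins. The members and all gene lists were chosen with earlier results of these data known. Named genes are all members, up to 3 called genes with the smallest p per list in an irradiation comparison and up to 2 in others, and the 3 genes closest in pattern. Mpo, Elane, Prss1, Defa5, Np4, Tlr4, Nos2 in the correlations and Csf1r are named for their levels or as fixed markers. Replicate numbers were checked for pairing. Deviations of libraries with the same number in different groups of a tissue had a median correlation of 0.00666 over 324 pairs. Colon against jejunum libraries of an equal number had 0.0678 over 66 pairs. Those of another number in the same group and series had -0.0311 over 204. Equal numbers were thus slightly higher across the tissues, which does not exclude pairing. The main fits did not pair by number. The labels call the libraries biological replicates and name no rats, so p measures the spread between libraries. DESeq2 1.42.0, other factors, no filter, a replicate block, a mitochondrial covariate, leaving out each replicate number, single library series and narrower fits were tried as alternatives.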

Additional observations from a re-analysis of the deposited data

Results flagged for a closer look

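Each of 7 members was examined in each of the 22 groups, which gave 154 sets of 6 libraries that share their libraries. Of these, 7 held 1 library far from the other 5, by Dixon's gap test at its 95% critical value. Chance gives about 1 in 20, so the number of such sets was no more than chance gives, and they are listed as a description. Replicate 6 of injected vehicle colon at day 4 was lowest in 3 genes at once: Reg3g at 10.8 CPM (others 252 to 437), Reg3b at 5.74 CPM (170.4 to 532) and Mmp7 at 1.57 CPM (54.9 to 70.2). It also had the lowest S100a9, 3.05 CPM against 8.76 to 68.9, and Duox2, 88.9 CPM against 619 to 3275. Replicate 3 of powder jejunum at day 7 was lowest in Reg3g at 144 CPM (others 2321 to 12241) and in Pla2g2a at 18.2 CPM (367 to 1433), with S100a9 at 0.126 CPM against 3.08 to 24.3. Pla2g2a was highest in replicate 3 of non-irradiated colon at 24.7 CPM (others 1.09 to 2.44), and in replicate 4 of injection colon at day 7 at 3662 CPM (others 700.0 to 994).

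The irradiation effect differed between the tissues by a test of the difference itself, jejunum minus colon on the log2 scale. At day 4 it was -5.94 for Reg3b, -4.76 for Pla2g2a and -7.17 for Mmp7. At day 7 it was -5.85, -4.54 and -6.64 in the same order.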

How the results depend on the processing

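RLE factors in place of TMM changed no call among 190 tests of members, and no direction of a result called in either fit. In colon, irradiation called 4 members at day 4 without any 1 replicate number, and 2 in place of 5 at day 7 with mitochondrial share in the fit. Day 7 against day 4 in untreated colon called 3 with DESeq2, 0 with mitochondrial share, 2 with only the compared groups, and 0 to 3 without any 1 replicate number. Powder at day 4 in colon called 0 with no filter, with a replicate block (Pla2g2a -2.02, adjusted p = 0.0574), with mitochondrial share, with no library series term and in series 1 or series 2 alone, and 0 to 2 without any 1 replicate number. In jejunum, irradiation at day 4 called 1 with a replicate block (Reg3g 2.30, adjusted p = 0.0578), with mitochondrial share and in series 1 alone, and 0 to 3 without any 1 replicate number. Day 7 against day 4 in jejunum called, in untreated rats, 2 with DESeq2 or no filter, 0 in series 1 and 3 in series 2. In oral vehicle rats it called 1 with a replicate block or only the compared groups, 0 in series 1, and 1 to 2 without any 1 replicate number. In injected vehicle rats it called 2 with DESeq2, 0 with mitochondrial share and 0 to 1 without any 1 replicate number. The tissue difference called 1 in series 1 alone on both days, and with a replicate block Reg3b at day 4 was -4.04 (adjusted p = 0.156) and Reg1a at day 7 was called at 2.46 (adjusted p = 0.0395). The block changed no call of a member beyond these and Pla2g2a in oral vehicle jejunum (2.49, adjusted p = 0.0581). Whether equal numbers mark the same rat is not in the labels. Reg4 in jejunum reversed in series 2 alone, at 1.25 and 1.93 for day 4 and day 7. Fits of 1 series or without a replicate number use fewer libraries, and otherwise the cause was not tested. Depth limits Reg3a in both tissues and Reg1a in colon.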
